A study of Mus musculus with 8 samples.

Results

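A set of 53 genes of liver fibroblasts and of the extracellular matrix other than collagens was followed in livers with a deletion of NgBR. The members are small leucine-rich proteoglycans, elastic fibre and matricellular proteins, crosslinking enzymes and the TGF-beta and PDGF receptor genes, taken by gene symbol from a table of 19642 genes. Some were chosen because they rise in N-LKO livers, and which ones is not recorded. The fold changes and calls below therefore describe the members and carry no test of them. Of the 53 members, 50 have a row in the table, Mfap2, Mfap5 and Clec3b have none, and 45 passed the filter on low counts.

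Liver RNA of 8 male mice on chow diet (CD) was sequenced, 4 WT and 4 N-LKO, with 1 library per mouse. N-LKO mice carry loxP-flanked NgBR (Nus1) alleles and albumin-Cre, a recombinase driven by the promoter of albumin, so the deletion is made in hepatocytes and not by design in fibroblasts. Both groups were on a C57BL6 background and on the same diet, for which the sample titles give 8 weeks and the treatment entries 16 weeks. The paper's legend for liver mRNA on chow diet also gives 8 weeks. Age is given only as matched between groups, and whether the WT mice carry a loxP allele or Cre is not given in the sources used here. NgBR is a subunit of the enzyme that makes the lipid carrier of N-glycosylation. Nus1 mRNA ranged from 82.0 to 90.5 CPM (read counts scaled to library size by TMM) in WT livers and from 33.3 to 38.7 CPM in N-LKO livers, at 41.7% of the WT mean (exact two-sided permutation test, p = 0.0286, the smallest that 4 against 4 allows). Total counts were 14688404 to 18585412 per liver. Hepatocyte markers were the most abundant of the cell type markers, at a summed 67414 to 96245 CPM in the 8 livers, and none of the 6 was called or had an unadjusted p under 0.05.

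Matrix in a healthy liver comes mainly from hepatic stellate cells, which line the sinusoids, and from portal fibroblasts, which lie around bile ducts and portal vessels. Small leucine-rich proteoglycans coat collagen fibrils, elastin is laid down on a scaffold of fibrillin microfibrils, and lysyl oxidases crosslink both elastin and collagen. TGF-beta is secreted in a latent form that latent TGF-beta binding proteins tether to this matrix, and PDGF receptors carry growth signals in fibroblasts and stellate cells. Fibronectin and vitronectin are different, since hepatocytes secrete them into plasma in large amounts.

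Of the 45 members tested, 10 rose and 1 fell in N-LKO livers, and 34 were not called. Calls were made with the edgeR quasi-likelihood method over all 14214 genes tested, at a Benjamini-Hochberg adjusted p below 0.05. Over all genes 0.823% were called higher and 0.218% lower, and since members were partly picked for rising, nothing is read from the members' larger share. Counts of genes with an unadjusted p under 0.05 are given in places. The share over all genes was not counted for them, so nothing is read from these counts either. Those that rose were Lum, Eln, Thbs2, Sparcl1, Dpt, Pdgfra, Cd34, Gsn, Htra3 and Mgp, and the one that fell was Postn. DESeq2 called 20 members and 371 genes in all, and edgeR called 7 members without WT liver 4. The log2 fold changes (N-LKO over WT, with SE for the standard error) of the 10 lay between 1.40 and 2.24. The median log2 fold change was 0.65 over the 45 members and -0.0033 over all genes. Every N-LKO liver lay above every WT liver for 22 members, and 4.2% of all genes showed this. Among the 34 members that were not called, 31 had a positive fold change, their median was 0.41, and 12 did not overlap between groups. In a whole liver, more fibroblasts, more mRNA per fibroblast and mRNA from other cell types cannot be told apart.

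**Figure D1:**
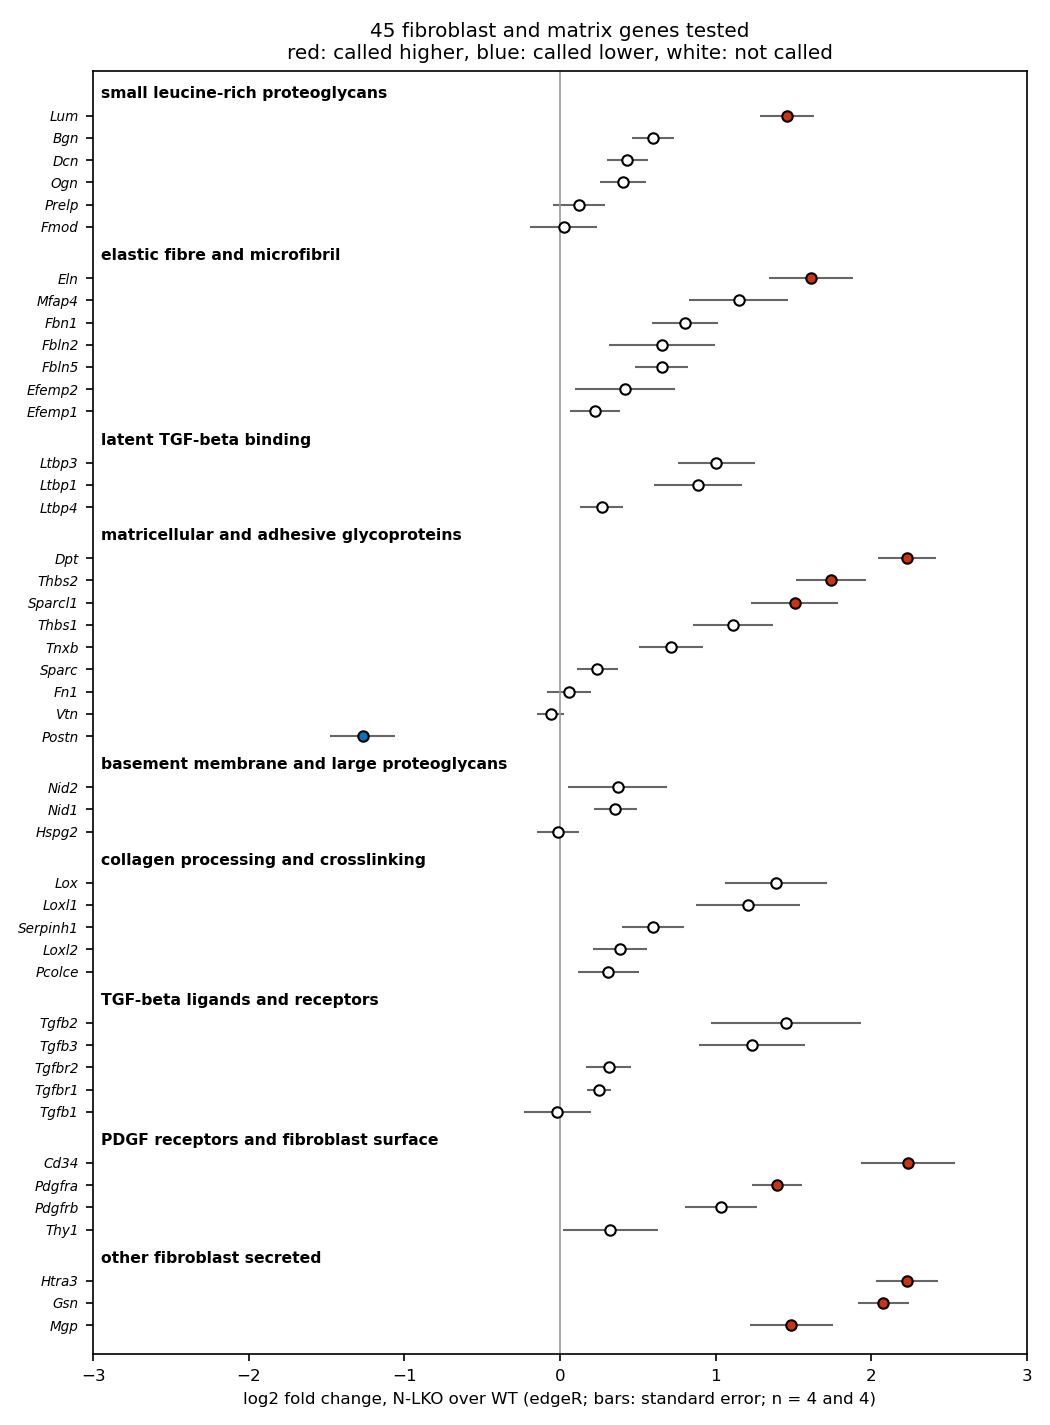
Log2 fold change of N-LKO over WT (x axis) for the 45 members tested, grouped by role, with bars for the standard error (n = 4 and 4). The 10 red points lie between 1.40 and 2.24, Postn (blue) lies at -1.27, and most white points, which were not called, lie to the right of 0.

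The filter on low counts needs 4 livers at 0.631 CPM or more, and 8 of the 45 members had fewer than 4 WT livers at that level, so they passed with the help of N-LKO livers. Cd34 and Mgp are the called genes among them. The 5 members that did not pass were Aspn, Fbln1, Ltbp2, Tnc and Vcan. Aspn, the proteoglycan asporin, had at most 3 counts in a liver, and the large proteoglycan Vcan (versican) at most 6. Fbln1, which encodes fibulin 1 of elastic fibres, was below the filter and yet did not overlap. It was at 0.214, 0.375, 0.317 and 0.331 CPM in WT livers and at 1.25, 1.06, 1.19 and 0.543 CPM in N-LKO livers, from counts of 4 to 22.

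Among the receptors and surface proteins of fibroblasts, Cd34 and Pdgfra rose. Cd34 encodes a sialomucin found on blood vessel endothelium and on fibroblasts of connective tissue. It was at 0.748, 0.563, 1.14 and 1.05 CPM in WT livers 1 to 4 and at 3.29, 4.49, 6.04 and 2.85 CPM in N-LKO livers 1 to 4. The groups did not overlap, and the mean rose from 0.875 ± 0.267 to 4.17 ± 1.43 CPM (SD, n = 4 each), a log2 fold change of 2.24 (SE 0.303). Vascular endothelial markers, which share endothelium with Cd34, summed to 47.0 to 51.0 CPM in WT and 42.8 to 57.0 CPM in N-LKO livers, and none of the 4 was called or had an unadjusted p under 0.05. Pdgfra encodes the PDGF receptor alpha, which is carried by most fibroblasts and by stellate cells. Its values were 10.2, 7.44, 8.24 and 8.33 CPM in WT livers and 17.4, 26.1, 27.3 and 19.6 CPM in N-LKO livers. All N-LKO values exceeded all WT values, at a log2 fold change of 1.40 (SE 0.160). Pdgfrb, the beta receptor that marks stellate cells and pericytes, was at 4.24 ± 1.04 CPM in WT and 8.71 ± 2.51 CPM in N-LKO livers (SD, n = 4 each), with no overlap, and was called with DESeq2 and not with edgeR (log2 fold change 1.04, SE 0.230). Thy1, a surface glycoprotein used as a portal fibroblast marker, overlapped between groups at 0.441 to 0.748 CPM in WT and 0.528 to 0.883 CPM in N-LKO livers. Of the PDGF ligands Pdgfa, Pdgfb, Pdgfc and Pdgfd, 0 of 4 were called with edgeR, DESeq2 or limma-voom, and 1 of them, Pdgfd, had an unadjusted p under 0.05 (log2 fold change 0.71, edgeR adjusted p = 0.171).

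The secreted fibroblast proteins with a row, Gsn, Htra3 and Mgp, all rose. Gsn encodes gelsolin, an actin-severing protein with a plasma form. It was at 5.82, 6.44, 6.34 and 7.45 CPM in WT livers and at 20.4, 29.9, 35.2 and 24.8 CPM in N-LKO livers. The lowest N-LKO liver was thus well above the highest WT liver, and the log2 fold change was 2.08 (SE 0.165). Htra3 encodes a secreted serine protease, and was at 1.02, 0.875, 0.634 and 0.773 CPM in WT and 4.31, 3.56, 4.05 and 3.73 CPM in N-LKO livers. Relative to their mean, its N-LKO values were closer together than those of the other called members, at 3.91 ± 0.331 CPM (SD, n = 4), and its log2 fold change was 2.23 (SE 0.198). Mgp encodes matrix Gla protein, an inhibitor of calcification. It was the lowest of the called genes in CPM, at 0.427, 0.50, 0.634 and 0.497 CPM in WT and 1.08, 1.58, 1.53 and 1.63 CPM in N-LKO livers, from 8 to 24 counts per liver. At a log2 fold change of 1.49 (SE 0.266), it was called in 1 of the 8 fits that left out a liver, the one without N-LKO liver 1.

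Dpt, Thbs2 and Sparcl1 rose among the matricellular and adhesive glycoproteins, and Postn fell. Dpt encodes dermatopontin, which binds decorin and collagen fibrils. Its values were 2.51, 2.38, 2.85 and 3.48 CPM in WT livers and 10.9, 12.1, 17.6 and 12.2 CPM in N-LKO livers. No N-LKO liver came near the WT range, and the log2 fold change was 2.23 (SE 0.185). Thbs2 encodes thrombospondin 2, a matricellular inhibitor of angiogenesis. It was at 1.5, 1.19, 1.71 and 2.26 CPM in WT and 4.20, 5.68, 6.90 and 5.70 CPM in N-LKO livers, a log2 fold change of 1.74 (SE 0.223) with no overlap. Sparcl1 encodes a relative of SPARC, and ranged more widely, from 3.53 to 6.47 CPM in WT livers and from 8.39 to 22.4 CPM in N-LKO livers. At a log2 fold change of 1.51 (SE 0.282), it was called in 1 of the 8 fits that left out a liver, the one without N-LKO liver 1.

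Postn encodes periostin, a matricellular protein that binds collagen and integrins and is often raised in fibrotic tissue. It went the other way, at 9.30, 7.69, 9.83 and 10.9 CPM in WT livers and 3.29, 3.96, 5.71 and 2.72 CPM in N-LKO livers. The highest N-LKO value was under the lowest WT value, the mean fell to 0.416 of the WT mean, and the log2 fold change was -1.27 (SE 0.208). It was no longer called without WT liver 4 or without N-LKO liver 1. Markers of hepatic stellate cells also held called genes below WT. Of 9 such markers, Colec10, a secreted collectin, was called lower (log2 fold change -1.31, edgeR adjusted p = 0.000876), as was Ecm1, a secreted matrix glycoprotein (-0.83, edgeR adjusted p = 0.0164, lost without WT liver 4 or N-LKO liver 3), and 7 of 9 were negative. Their summed level was 166 to 254 CPM in WT and 144.4 to 197.6 CPM in N-LKO livers, with Lrat, the enzyme that stores vitamin A in these cells, at -0.15. Hhip, another of the 9, had the largest fall (-1.68, edgeR adjusted p = 0.0764). It was called with DESeq2 and not with edgeR, and its groups did not overlap. Des (0.63) and Reln (0.087) were positive, overlapped between groups and were not called. Of the 9 markers, 4 had an unadjusted p under 0.05, and the rise of Des was among them. The part of the stellate cell markers in the change of Postn was not tested.

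The other matricellular members were not called with edgeR, and DESeq2 called Thbs1 and Tnxb among them. Thbs1, thrombospondin 1, which can activate latent TGF-beta, was at 1.23 ± 0.251 CPM in WT and 2.69 ± 0.713 CPM in N-LKO livers (SD, n = 4 each) with no overlap. Tnxb, the tenascin of loose connective tissue, had a log2 fold change of 0.71 and overlapped in a single pair of livers, WT 4 at 6.57 CPM and N-LKO 1 at 6.12 CPM. Sparc, a collagen-binding matricellular protein, had a log2 fold change of 0.24. Fibronectin (Fn1) at 0.058 (SE 0.144) and vitronectin (Vtn) at -0.059 (SE 0.0860) lay within their errors, and Vtn, the lower in counts, had 17469 or more in every liver. Tnc, tenascin C, was below the filter at 0.127 to 0.773 CPM.

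**Figure D2:**
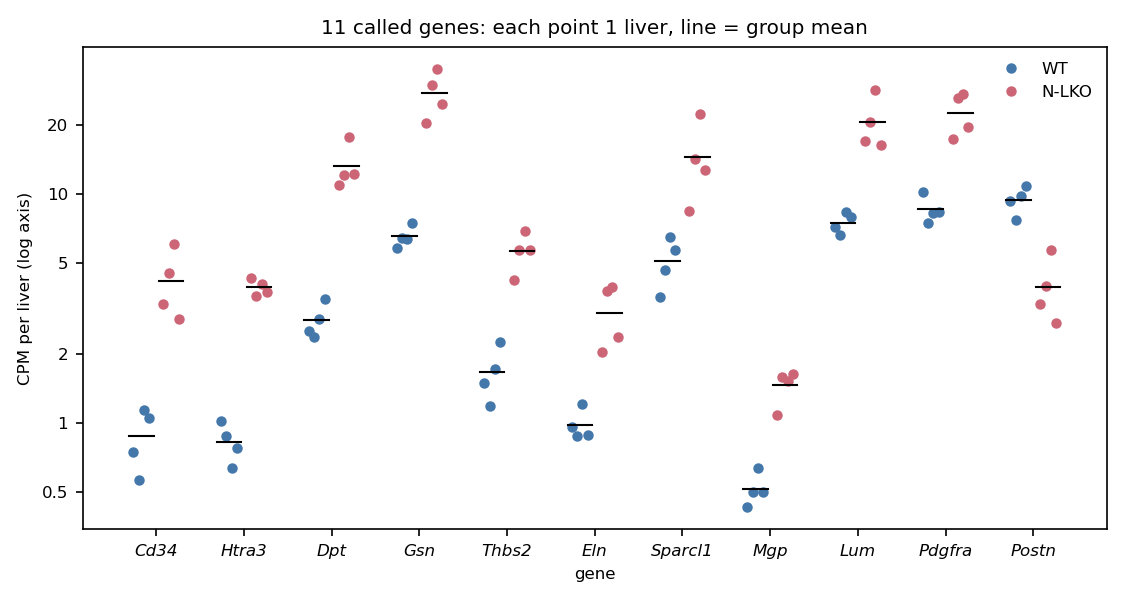
CPM (log axis) of the 11 called members, ordered by fold change, with 1 point per liver, WT in blue and N-LKO in red, and a line at each group mean. The groups do not overlap for any of the 11, and Postn is the one with N-LKO below WT.

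Of the small leucine-rich proteoglycans, edgeR called Lum, and DESeq2 called Bgn as well. Lum encodes lumican, which spaces collagen fibrils. It was at 7.16, 6.63, 8.31 and 7.89 CPM in WT livers and 17, 20.7, 28.5 and 16.4 CPM in N-LKO livers. The groups did not overlap, at a log2 fold change of 1.46 (SE 0.173). Dcn, decorin, which binds collagen and TGF-beta, lies on chromosome 10 on the same strand as Lum and 46983 bases away (Dcn at 97479609 to 97518144 and Lum at 97565128 to 97572704, GRCm38). Decorin was the more abundant of the pair by CPM per kb of exon, at 28.8 against 5.75 over the 8 livers, and was not called, at a log2 fold change of 0.43 (SE 0.133). Dcn overlapped in a single pair of livers, since N-LKO 1 at 160 CPM was just below WT 4 at 162 CPM. The ratio of Dcn to Lum CPM was 18 to 20.5 in WT livers and 7.11 to 11.5 in N-LKO livers. Bgn, biglycan, the closest relative of decorin, was at 46.8 to 65.3 CPM in WT and 71.3 to 107 CPM in N-LKO livers, without overlap (log2 fold change 0.60, SE 0.136). Ogn, osteoglycin, also did not overlap (log2 fold change 0.41, SE 0.148). Prelp at 0.12 and fibromodulin (Fmod) at 0.025, 2 further collagen-binding members that lie 115838 bases apart on chromosome 1, overlapped.

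Elastin (Eln), the core of elastic fibres, rose among the elastic fibre genes. It was at 0.962, 0.875, 1.20 and 0.883 CPM in WT livers and 2.04, 3.76, 3.91 and 2.38 CPM in N-LKO livers, from 14 to 59 counts. Its call, at a log2 fold change of 1.62 (SE 0.270), was lost without WT liver 2, without WT liver 4 or without N-LKO liver 3. The other 6 members of this group that were tested were positive and not called with edgeR, and DESeq2 called Fbn1 and Fbln5 among them. Fibrillin 1 (Fbn1), the backbone of microfibrils, was at 2.16 to 3.38 CPM in WT and 3.63 to 6.73 CPM in N-LKO livers (log2 fold change 0.81, SE 0.213). Fibulin 5 (Fbln5), which guides elastin onto microfibrils, was at 4.06 to 5.52 CPM in WT and 5.78 to 8.96 CPM in N-LKO livers (0.65, SE 0.169). Neither overlapped, and the same held for Mfap4, a microfibril-associated protein, at 1.15 (SE 0.318). Fbln2, a portal fibroblast marker, had a log2 fold change of 0.66 with an SE of 0.342 and overlapped. Efemp1 and Efemp2, the fibulins 3 and 4, were at 0.23 and 0.42 and overlapped as well.

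No crosslinking or collagen processing gene was called with edgeR or limma-voom and 1, Lox, was with DESeq2. The 5 were positive, 4 of them with an unadjusted p under 0.05, a count without its share over all genes. Lox, the founding lysyl oxidase, was at 0.748, 0.50, 0.824 and 0.497 CPM in WT and 2.21, 1.78, 1.86 and 0.883 CPM in N-LKO livers, from 8 to 39 counts. Loxl1, which acts on elastin, was at 0.695, 0.750, 0.888 and 1.1 CPM in WT and 1.30, 1.91, 3.32 and 1.49 CPM in N-LKO livers. Neither gene overlapped between groups, and their log2 fold changes were 1.39 (SE 0.330) and 1.21 (SE 0.334). Loxl2 at 0.39, the procollagen C-proteinase enhancer Pcolce at 0.31 and the collagen chaperone Serpinh1 at 0.60 overlapped.

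None of the 8 tested TGF-beta ligand, receptor and latent binding genes was called with edgeR or limma-voom, 5 had an unadjusted p under 0.05, and DESeq2 called Tgfb3 and Ltbp3. Tgfb1, the main ligand of fibrosis, was at 5.29 ± 1.32 CPM in WT and 5.27 ± 1.33 CPM in N-LKO livers (SD, n = 4 each). The other ligands were low, with Tgfb2 at 0.588, 0.875, 0.0634 and 0.883 CPM in WT and 1.64, 1.25, 2.59 and 1.22 CPM in N-LKO livers. Tgfb2 did not overlap and had a log2 fold change of 1.45 with an SE of 0.480, the widest of all members, and WT liver 3 held 1 count. Tgfb3 had a log2 fold change of 1.24 (SE 0.342) and overlapped in 1 pair of livers. The receptors were much more abundant. Tgfbr1 was at 34.0 to 39.5 CPM in WT and 42.9 to 49 CPM in N-LKO livers, so that the groups did not overlap at a log2 fold change of only 0.25 (SE 0.0781). Tgfbr2 was at 0.31 (SE 0.144), with WT liver 1 at 47.4 CPM above 3 of the 4 N-LKO livers. Of the latent TGF-beta binding genes, Ltbp3 at 1.00 (SE 0.246) did not overlap, and Ltbp1 at 0.88 (SE 0.283) and Ltbp4 at 0.27 (SE 0.140) did. Ltbp2 was below the filter. Of a further list of 20 tested genes of TGF-beta signalling, among them the Smads, their inhibitors and target genes, 0 were called with edgeR or limma-voom, 3 had an unadjusted p under 0.05, DESeq2 called Itgb8, an integrin subunit that activates TGF-beta, and the median log2 fold change was 0.19.

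The 3 basement membrane members were not called with edgeR, DESeq2 or limma-voom, and 1 had an unadjusted p under 0.05. Nid1 and Nid2, the nidogens that link laminin to collagen IV, had log2 fold changes of 0.36 (SE 0.141) and 0.37 (SE 0.320). Perlecan (Hspg2), the heparan sulfate proteoglycan of basement membranes, was at 12.5 ± 0.900 CPM in WT and 12.4 ± 2.30 CPM in N-LKO livers (SD, n = 4 each). The 3 genes overlapped between groups.

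Vitronectin and fibronectin were the most abundant members. Levels of different genes are compared here as CPM per kb of exon, averaged over the 8 livers. Vtn at 608 and Fn1 at 127 were the highest, followed by Dcn at 28.8, Sparc and Bgn at 11.9 each, and Prelp at 9.84. Of the 10 highest, down to Tgfbr2 at 4.90, edgeR called Lum and Gsn. The other 35 lay at 4.66 and below and hold the 8 members that passed the filter with fewer than 4 WT livers, so fold changes were not compared between the high and the low members. Dpt at 4.64 and Sparcl1 at 3.32 were the next most abundant of the called genes, and Eln at 0.247 was the least abundant.

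**Figure D3:**
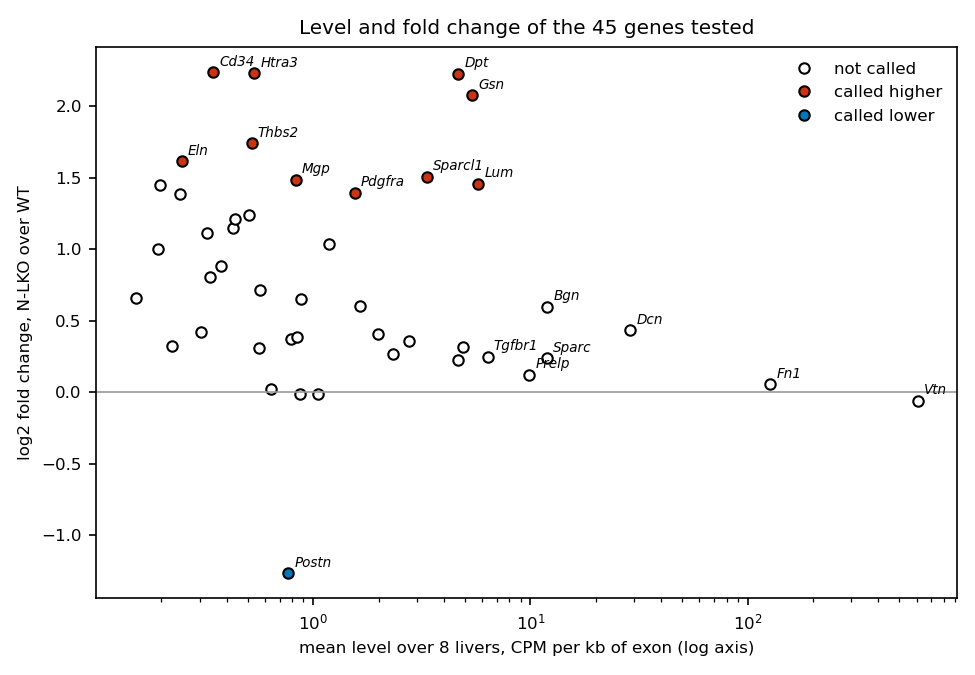
Mean level in CPM per kb of exon (x axis, log scale) against log2 fold change (y axis) for the 45 members tested, with called genes filled. Vtn and Fn1 lie far to the right and near 0, and the red points lie at 5.75 CPM per kb or below.

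Livers of the same genotype differed in their levels of the members. Of the 45 members tested, N-LKO liver 3 was the highest of its group in 27 (60%), where 24.0% of all genes had it highest. N-LKO liver 1 was the lowest of its group in 31 (68.9%, against 26.0% of all genes). In the WT group, liver 2 was the lowest in 26 (57.8%, against 27.2% of all genes). The median log2 difference of the members from the WT mean was 0.31, 0.79, 0.90 and 0.50 in N-LKO livers 1 to 4, and -0.024, -0.19, 0.10 and 0.13 in WT livers 1 to 4. For the 10 that rose it was 1.24, 1.78, 2.08 and 1.54 in N-LKO livers 1 to 4. Of these 10, N-LKO liver 3 was the highest in 8 and N-LKO liver 1 the lowest in 7. Htra3 was highest in N-LKO liver 1 and Mgp in N-LKO liver 4, and Lum and Cd34 were lowest in N-LKO liver 4. Some members were chosen for rising in these same livers, and members of 1 liver come from 1 library and are not independent, so no test of this order was made.

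**Figure D4:**
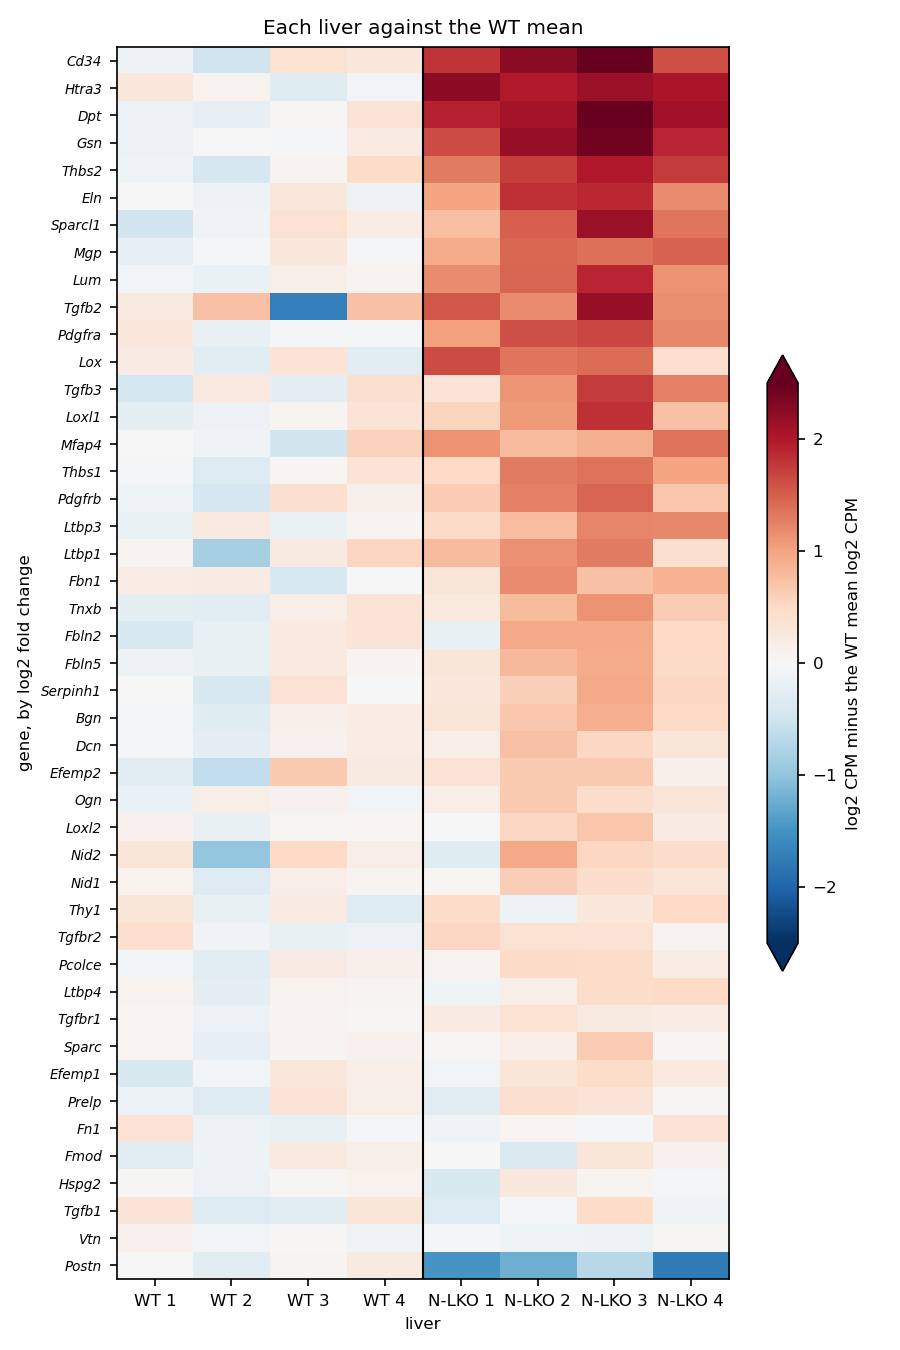
Log2 CPM of each of the 45 members tested (rows, by fold change) in each liver (columns), minus the gene's WT mean, with red above and blue below and the colours capped at 2.5 in both directions. N-LKO liver 3 is the darkest column for most genes near the top and N-LKO liver 1 the palest for many, and Postn, the bottom row, is blue in all N-LKO livers.

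Markers of cholangiocytes, the cells of the bile duct lining, also differed between groups in their sum. Summed over 8 genes, they were at 29.2, 24.1, 46.0 and 35.3 CPM in WT livers 1 to 4 and at 53.2, 84.9, 135 and 81.8 CPM in N-LKO livers 1 to 4. Spp1 made up most of this sum, at 37.4, 68.0, 105 and 61.9 CPM in N-LKO livers 1 to 4. Spp1, Epcam, Prom1 and Cftr were highest in N-LKO liver 3 and lowest in N-LKO liver 1. Sox9 and Krt7 were lowest in N-LKO liver 2, Krt19 in N-LKO liver 4 and Cldn4 in N-LKO liver 3. Of the 5 tested, Epcam, an epithelial adhesion molecule, rose (log2 fold change 1.55, edgeR adjusted p = 0.0293), as did Spp1, the secreted phosphoprotein osteopontin (1.51, edgeR adjusted p = 0.0353). Each was called in 2 of the 8 fits that left out a liver. Both lost the call without WT liver 1, WT liver 2, WT liver 4, N-LKO liver 2 or N-LKO liver 3, Epcam also without WT liver 3 and Spp1 also without N-LKO liver 4. Spp1 also lost it with library totals alone, and limma-voom called 0 of the 5. DESeq2 called Epcam, Spp1 and also Sox9. Krt7, Cftr and Cldn4 were below the filter. Krt7 had a mean of 0.362 CPM in WT and 0.357 CPM in N-LKO livers. Cftr was at 0 counts in WT liver 1, and Cldn4 in WT livers 1 and 4. Neither overlapped, with Cftr at 0 to 0.331 CPM in WT and 0.567 to 1.53 CPM in N-LKO livers. Cldn4 was at 0 to 0.127 CPM in WT and 0.133 to 0.339 CPM in N-LKO livers. Mesothelial markers summed to 5.93 to 8.55 CPM in WT and 8.90 to 11.4 CPM in N-LKO livers. Wt1, a transcription factor of mesothelium and of some mesenchymal cells, rose (1.75, edgeR adjusted p = 0.0129, lost without WT liver 4). Msln at 0.49, Gpm6a at 0.49 and Upk3b at -0.37 were not called. Of the 4 mesothelial markers tested, 2 had an unadjusted p under 0.05, Wt1 and Gpm6a. The part of these cells in the members' values was not tested.

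The portal fibroblast name was not tested, since some members were chosen because they rise in these livers. Of the 5 markers fixed outside the members, Entpd2 (log2 fold change -0.22) and Col15a1 (-0.39) were tested and neither was called (0 with an unadjusted p under 0.05, 0 with DESeq2 or limma-voom), at a summed 5.68 to 11.6 CPM for the list in WT and 5.09 to 7.79 CPM in N-LKO livers. Gli1, a transcription factor of the Hedgehog pathway, was at 0 in 3 WT livers and at 0.0664 to 0.204 CPM in N-LKO livers. Slit2, a guidance ligand, was at 0.0552 to 0.127 CPM in WT and 0.284 to 0.475 CPM in N-LKO livers. Both were below the filter, and Pi16 has no row. Among the members, Thy1 and Fbln2 were not called and Eln, Cd34, Gsn, Dpt and Mgp were. These calls carry no weight for the name, and the genes are described here as fibroblast and matrix genes. Smooth muscle (3 tested), sinusoidal endothelial (6), Kupffer cell (6) and adipocyte (1) markers held 0 called genes with edgeR, DESeq2 or limma-voom, 1 sinusoidal and 1 Kupffer cell marker had an unadjusted p under 0.05, and exocrine pancreas markers have no row in the table.

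**Figure D5:**
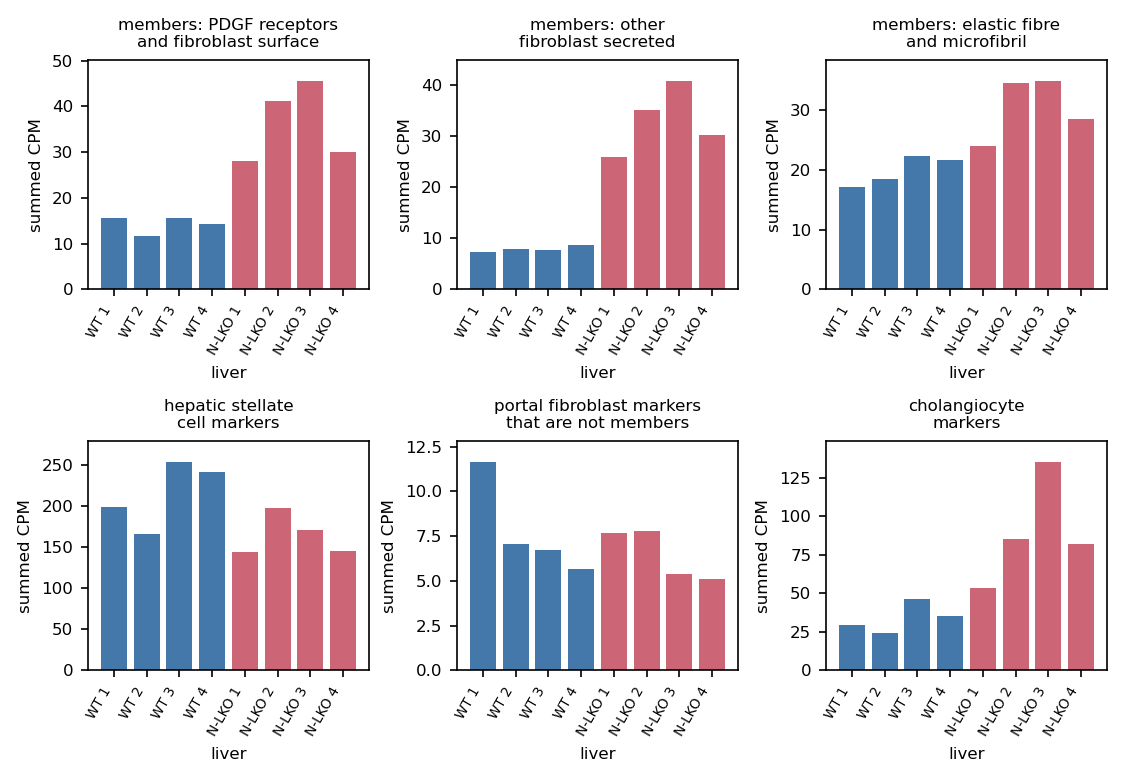
Summed CPM per liver (bars from 0) for 3 groups of members (top) and for markers of hepatic stellate cells, portal fibroblasts outside the members and cholangiocytes (bottom), with WT in blue and N-LKO in red. The other fibroblast secreted genes run from 7.27 to 8.72 CPM in WT and 25.8 to 40.7 CPM in N-LKO livers, and the cholangiocyte bars, which are mostly Spp1, run from 24.1 to 46.0 CPM in WT and 53.2 to 135 CPM in N-LKO livers.

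Matrix genes outside the members were examined through a list of 34 others, of which 28 were tested. Of these 4 rose and 0 fell, with a median log2 fold change of 0.40. Svep1, a large adhesion protein of mesenchymal matrix, was at 0.508 ± 0.0476 CPM in WT and 2.73 ± 1.11 CPM in N-LKO livers (SD, n = 4 each), a log2 fold change of 2.40 (edgeR adjusted p = 0.00844). Spon1, F-spondin, was at 1.08 ± 0.101 and 3.34 ± 0.303 CPM (1.62, edgeR adjusted p = 0.00184). Smoc2, a relative of SPARC, was at 3.46 ± 0.281 and 9.41 ± 2.76 CPM (1.44, edgeR adjusted p = 0.00760). Igfbp7, a secreted binding protein of vascular and stromal cells, rose less, from 27.4 ± 1.54 to 43.9 ± 8.94 CPM (0.68, edgeR adjusted p = 0.0393). For comparison, 3 of 13 collagen genes rose, Col1a1 (1.45, edgeR adjusted p = 0.0444), Col6a2 (0.98, edgeR adjusted p = 0.0373) and Col6a3 (1.16, edgeR adjusted p = 0.0242), with a median of 0.84 over the 13. Svep1, Spon1 and Smoc2 were called in all 8 fits that left out a liver. Svep1 rests on 7 to 10 counts per WT liver, at 0.444 to 0.552 CPM. These values are under the 0.631 CPM of the filter, so Svep1 passed through the N-LKO livers. Its exons also overlap Gm26889, a gene annotated on the other strand, over 2244 bases. Igfbp7 and the 3 collagens were each called in 1 of the 8 fits, and limma-voom called none of these 4. Library totals alone lost Igfbp7, Col1a1 and Col6a2. DESeq2 kept the calls of both lists and added Col1a2 and Col6a1 among the collagens and Sned1 among the other matrix genes. These lists were written with earlier results of these data known.

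No motif that was searched lay in more than 2 of the 8 promoter windows of genes that rose. Windows of 300 bases, from 250 before to 50 after a gene's start, were taken from RefSeq on GRCm38.p6 and were matched for 36 of the 53 members (49 windows) and for 6 of the 10 that rose (8 windows). The motifs, searched on both strands, were TGANTCA of AP-1, GGAATG of TEAD, CAGACA of SMAD and TATAAA. The AP-1 motif reads the same on both strands, none of the 4 contains another, and matches could overlap. AP-1 was in 0 of the 8 windows of genes that rose, against 7.81% of all 32851 windows. TEAD was in 0 of 8, against 14.7% of all windows, SMAD in 1 of 8, against 21%, and TATAAA in 2 of 8, against 13.6%. Over the 49 windows of members, AP-1 was in 6.12%, TEAD in 8.16%, SMAD in 30.6% and TATAAA in 18.4%. A match describes the letters only, and 8 windows are few. The windows of the 3 genes that rose most in their role groups are given as examples, in lower case with a match in capitals. Cd34 and Htra3 hold none of the 4 motifs, and Dpt holds TATAAA at base 263, which is base 13 after the start in this annotation.
Cd34, chr1:194938571-194938870, plus strand: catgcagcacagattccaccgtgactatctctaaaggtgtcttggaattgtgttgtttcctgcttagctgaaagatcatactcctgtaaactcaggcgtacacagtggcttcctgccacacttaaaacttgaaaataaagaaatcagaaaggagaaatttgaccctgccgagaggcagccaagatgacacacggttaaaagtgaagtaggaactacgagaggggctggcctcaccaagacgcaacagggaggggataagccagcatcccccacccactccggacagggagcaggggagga
Htra3, chr5:35679731-35680030, minus strand: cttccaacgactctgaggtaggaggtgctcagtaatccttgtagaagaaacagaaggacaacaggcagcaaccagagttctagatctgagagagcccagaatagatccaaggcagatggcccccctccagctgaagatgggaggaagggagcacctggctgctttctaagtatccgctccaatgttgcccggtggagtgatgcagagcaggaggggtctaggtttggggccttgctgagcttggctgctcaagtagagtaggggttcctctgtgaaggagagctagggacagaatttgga
Dpt, chr1:164796413-164796712, plus strand: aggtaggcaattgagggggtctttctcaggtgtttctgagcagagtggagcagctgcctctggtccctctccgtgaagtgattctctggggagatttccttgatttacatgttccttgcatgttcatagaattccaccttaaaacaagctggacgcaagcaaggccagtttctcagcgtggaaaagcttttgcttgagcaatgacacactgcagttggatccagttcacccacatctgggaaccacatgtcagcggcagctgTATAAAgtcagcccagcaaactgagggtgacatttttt

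The called genes are protein coding in GENCODE M21, the annotation of GRCm38 with which the coordinates deposited match. Cd34 lies on chromosome 1 at 194938819 to 194961280 and Dpt at 164796644 to 164824267, both on the plus strand. Gsn lies on chromosome 2 at 35256380 to 35307893 (plus strand) and Htra3 on chromosome 5 at 35652023 to 35679783 (minus strand). Exons of 3 of the 11, Cd34, Eln and Pdgfra, overlap a gene annotated on the other strand. Whether the counting used strand is not given in the sources used here, so a share of their reads from the other gene cannot be told apart. The other 8 have no such overlap.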

How the data were processed

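Livers of 4 WT and 4 N-LKO mice were compared. The authors trimmed and aligned the reads and deposited estimated counts (expected counts) per gene, not scaled to depth, with decimals in 10274 of 19642 rows. The study's methods name trimming, TopHat2 and cuffdiff after removal of rRNA, whereas the submitters' processing notes name STAR, Partek and mm9, and the labels name a small RNA kit. Which of these gave the counts is not given in the sources used here. Start and end matched GENCODE M21 within 1 base for 99% of the 19194 matched symbols, so GRCm38 is used. The smallest sum over the 8 mice in the table is 10, and a gene without a row cannot be read as 0.

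Counts were rounded, filtered by filterByExpr (minimum count 10, minimum total 15), TMM-scaled and fitted in R 4.3.3 by edgeR 4.0.16 (functions glmQLFit and glmQLFTest) on genotype alone, with Benjamini-Hochberg adjustment over 14214 genes. Standard errors were obtained by dividing each log2 fold change by the root of its F statistic. Log2 CPM used a prior count of 2. The fit was tested on simulated data with the same dispersion for every gene and changes placed only in genes with higher counts. That check does not cover members with few counts. No pair of libraries agreed within sampling noise (chi-square per degree of freedom 11.8 to 48.6). Samples were grouped by genotype and numbered by title. The labels call them biological replicates. The members and lists were chosen with earlier results of these data known. All called members are named with values, and the others by fold change or range. Alternatives were RLE scaling, library totals, other filters, DESeq2 1.42.0, limma-voom 3.58.1, replicate blocks and each mouse left out. A planned comparison of protein sequences was not done. Depths of 14688404 to 18585412 counts per mouse leave genes under about 1 CPM with wide errors.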

Additional observations from a re-analysis of the deposited data

Results flagged for a closer look

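In 94 groups of 4 livers, 1 liver stood far from the other 3 in 4 groups by Dixon's test, where chance gives about 1 in 20 groups, or 4.7. Nus1 was lowest in WT liver 1, at a log2 CPM of 6.36. Ltbp4 (3.55) and Tgfbr1 (5.09) were lowest in WT liver 2, which was also the lowest WT liver for most members. Mgp, the least abundant called gene in CPM, was lowest in N-LKO liver 1, at a log2 CPM of 0.26. With a prior count of 0.5, 3 of the 90 groups of members had such a liver.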

How the results depend on the processing

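All 11 calls among the members were kept under RLE scaling and library totals alone, and the members' median log2 fold change was 0.59 to 0.65 over the settings that kept all livers. DESeq2 called 371 genes instead of 148 and 20 members instead of 11, adding Bgn, Fbln5, Fbn1, Lox, Ltbp3, Pdgfrb, Tgfb3, Thbs1 and Tnxb, and 66.8% of its calls were higher against 79.1% with edgeR. Leaving out 1 liver at a time gave 71 to 173 genes and 7 to 11 members called, with a median of the members of 0.51 to 0.76. The fewest, 71 genes and 7 members, came without WT liver 4, where Eln, Mgp, Postn and Sparcl1 were lost. Gene counts also fell to 83 without WT liver 2, 91 without WT liver 3 and 76 without N-LKO liver 3. The cause was not tested. Lum, Thbs2, Dpt, Pdgfra, Cd34, Gsn and Htra3 were called in all 8 of these fits and in all 8 other settings. No called member changed direction, and Fmod, Fn1, Hspg2 and Tgfb1, none of them called, changed sign. limma-voom lost Sparcl1, and a minimum mean of 1 CPM, which tested 41 members, lost Mgp.

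Between a WT and an N-LKO liver with the same number, correlations were -0.085 to 0.062 for title numbers and -0.0092 to 0.17 for library numbers. Livers with unlike numbers were not compared, so whether either numbering pairs the mice was not tested. With a replicate block of title numbers, 131 genes and 10 members were called and Mgp was lost. With one of library numbers, 113 genes and 8 members were called and Eln, Mgp and Sparcl1 were lost. Among the named genes outside the members, the block of title numbers lost Wt1, Igfbp7, Col1a1 and Col6a2, and that of library numbers lost Epcam, Spp1, Igfbp7, Col1a1, Col6a2 and Col6a3. Members near 1 CPM rest on few counts, and this limits what can be said of Mgp, Lox, Mfap4, Thy1 and Tgfb2. The fold changes of Cd34, Htra3 and Eln also rest on few WT counts, with at most 19 in a WT liver for each.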
